A study of Mus musculus with 4 samples.

Results

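Regulatory T cells (Tregs) are CD4+ T cells that hold back other immune cells and, in injured tissue, also make factors that act on repair. Their identity rests on the transcription factor FOXP3, and they take up the growth factor IL-2 through a receptor whose high-affinity chain, CD25, is encoded by Il2ra. The 9 genes described here are Foxp3, Il2ra, Ctla4, Ikzf2, Tnfrsf4, Tnfrsf18, Icos, Il10 and Tigit, a list of known Treg genes taken from 32286 gene features. Several of them are not made by Tregs alone. Activated conventional T cells and group 2 innate lymphoid cells (ILC2s), which lack a T cell receptor and make type 2 cytokines, also use some.

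Lungs came from 2 WT and 2 Tubb3-/- mice of 8 to 11 weeks, harvested 14 days after bleomycin (0.8 U/kg into the trachea), a drug that injures the lung and leads to fibrosis. Tubb3 encodes β-III tubulin, and the Tubb3-/- mice are homozygous for a Cre knock-in at the start of that gene, so they also carry Cre. The WT mice were littermates, and no sample without bleomycin was analysed here. From each mouse, whole lung cells depleted of TER-119+ erythrocytes and a mural cell-enriched sample, depleted of CD31+, CD45+, EpCAM+ and TER-119+ cells, were tagged, pooled by type and sequenced with a 10x 3′ kit, and the values are unique molecular identifiers (UMIs) counted per gene and cell.

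Of 32121 cells deposited, 30018 were kept, and 59 barcodes occurred in both pools. The 8 libraries held a median of 9186 to 16299 gene UMIs per cell. Tubb3 was at 1.93 and 0.868 CPM (UMIs scaled to a sum of 1000000 gene UMIs per library or group) in the WT whole lung libraries and at 0.262 and 0.321 in the Tubb3-/- ones, and Cre UMIs occurred in Tubb3-/- libraries only, 5 in all. By Xist and Y-linked UMIs the mice numbered 1 were male and those numbered 2 female. Transcripts of other cell types were widespread, with the macrophage gene Lyz2 in 97.6% and the alveolar gene Sftpc in 88.6% of the Foxp3+ Cd4+ T cells described next.

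Groups of cells were gated on single genes. A T cell had a Cd3e UMI (1918 cells), and 486 of these had a Foxp3 UMI. Of the 486, 298 had Cd4 and no Cd8a UMI (Foxp3+ Cd4+ cells), 182 had neither and 6 had Cd8a. Beside them stood 440 Foxp3- Cd4+ T cells, 227 Cd8a+ T cells without Foxp3 or Cd4, and 296 ILC2-like cells with Gata3 and Il1rl1 but no Cd3e UMI. Nearly all Cd3e+ cells, 1884, came from the whole lung libraries, and the mural cell-enriched samples had been depleted of CD45+ cells. Other T cell genes were found in nearly all of the gated Foxp3+ cells, with Trac in 90.7% and Cd3g in 95.7% of the 486 cells and Cd8a in 1.23%. Another 183 cells had a Foxp3 UMI without Cd3e, 49 of them ILC2-like. Such a UMI was found in 1 of 639 B-like (Cd79a and Ms4a1) and 0 of 290 NK-like cells (Ncr1 and Klrb1c). It was also found in 20 of 2225 macrophage-like, 12 of 1104 dendritic-like and 5 of 934 neutrophil-like cells. The rest were 20 of 3232 endothelial-like, 18 of 9235 fibroblast-like, 5 of 2549 mural-like, 2 of 696 epithelial-like and 51 of 6900 unnamed cells.

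All positions are those of GENCODE vM21 on mm10. Foxp3 lies at chrX:7573644-7595245 and overlaps the non-coding gene Flicr on the same strand, so reads shared by both cannot be told apart. On the other strand it overlaps the protein-coding genes Ppp1r3f and Ccdc22, which is a limit too if counting ignored strand. Ctla4 (chr1:60887000-60915832) and Icos (chr1:60977927-61000320) are neighbours 62094 bp apart, and Tnfrsf4 (chr4:156013843-156016612) and Tnfrsf18 (chr4:156026164-156028895) are 9551 bp apart. Il2ra lies at chr2:11642807-11693193, Ikzf2 at chr1:69531214-69687245, Il10 at chr1:131019845-131024974 and Tigit at chr16:43648867-43664146. Ikzf2 holds 2 non-coding genes on its own strand, Gm29112 and Gm28112, with which its UMIs may be mixed.

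Promoters are shown for Foxp3, the gene that defines the gate, and for Il2ra and Tnfrsf18, both of which were higher in ILC2-like cells as well as in Foxp3+ cells. RefSeq (GRCm38.p6) had 7 promoters for 6 of the 9 genes, and each sequence is the 250 bases before the transcription start, 5′ to 3′. Both Foxp3 promoters lie within the span of the gene given above. The Tnfrsf18 window begins before the span of its gene and runs into it, and its marked match lies within that span. Capitals mark a match to 1 of 6 motifs searched on both strands, none of which overlapped another match.
Foxp3 promoter 1, chrX:7579426-7579675, + strand: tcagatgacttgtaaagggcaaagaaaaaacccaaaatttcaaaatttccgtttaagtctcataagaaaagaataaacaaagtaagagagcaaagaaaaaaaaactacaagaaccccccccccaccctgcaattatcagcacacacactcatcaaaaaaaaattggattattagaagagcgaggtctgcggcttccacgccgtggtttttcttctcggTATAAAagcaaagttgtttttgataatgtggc
Foxp3 promoter 2, chrX:7580233-7580482, + strand: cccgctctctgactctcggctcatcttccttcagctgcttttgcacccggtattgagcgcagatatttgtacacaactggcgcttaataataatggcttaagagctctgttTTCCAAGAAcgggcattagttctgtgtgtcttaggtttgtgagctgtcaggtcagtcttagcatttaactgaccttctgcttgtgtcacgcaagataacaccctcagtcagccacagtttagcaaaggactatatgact
Il2ra promoter, chr2:11642542-11642791, + strand: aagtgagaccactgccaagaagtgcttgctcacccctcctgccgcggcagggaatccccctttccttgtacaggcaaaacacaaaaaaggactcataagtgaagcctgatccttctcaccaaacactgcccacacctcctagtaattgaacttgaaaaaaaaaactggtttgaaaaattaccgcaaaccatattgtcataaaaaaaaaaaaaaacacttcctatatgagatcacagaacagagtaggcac
Tnfrsf18 promoter, chr4:156026072-156026321, + strand: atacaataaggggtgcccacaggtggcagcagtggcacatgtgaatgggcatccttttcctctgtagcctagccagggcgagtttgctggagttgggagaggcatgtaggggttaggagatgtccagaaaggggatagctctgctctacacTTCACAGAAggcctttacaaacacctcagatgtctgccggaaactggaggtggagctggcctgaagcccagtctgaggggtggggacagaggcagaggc
The first Foxp3 promoter held the TATA box letters TATAAA 32 bases before the start, which 12.4% of all 32851 promoters of this length also held. The second held the STAT letters TTCNNNGAA 139 bases before the start and Tnfrsf18 held them 99 bases before it, against 7.02% of all promoters. STAT5 acts downstream of the IL-2 receptor, but a match is a description of letters and not a binding site. No match to forkhead (GTAAACA), AP-1 (TGANTCA), NF-kB or ETS (CCGGAAGT) letters was found in the 7 windows, and the Il2ra window matched none of the 6 motifs. Of all promoters, 3.17%, 6.75%, 1.21% and 2.88% held these 4 motifs.

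The first question was whether Foxp3+ cells made up another share of T cells without Tubb3. Foxp3+ cells were 22.3% (118 of 529) and 11.8% (38 of 321) of Cd3e+ cells in WT replicates 1 and 2, and 35.9% (227 of 633) and 23.7% (103 of 435) in Tubb3-/- replicates 1 and 2. Both Tubb3-/- mice were above both WT mice, but Tubb3-/- replicate 2 exceeded WT replicate 1 by less than the counting error, with exact 95% binomial intervals of 19.8% to 28.0% and 18.8% to 26.1%. The means were 17.1% ± 7.40 and 29.8% ± 8.62 (SD, n = 2 each), a difference of 12.7 percentage points (exact two-sided permutation p = 0.333, the smallest that 2 against 2 mice can give). In edgeR's test on cell numbers the ratio was 0.78 on the log2 scale (SE 0.33, Benjamini-Hochberg adjusted p = 0.197 over 5 T cell classes), which did not pass 0.05. Replicate 1 was above replicate 2 in both genotypes, and the difference was 13.6 points within the male pair and 11.8 points within the female pair. With the replicate number, which went with sex in these mice, as a block, an alternative added after seeing the data, the ratio was 0.77 (adjusted p = 0.00744, edgeR) and passed the threshold. Without the block, the ratio was 0.43 without WT replicate 2 and 1.34 without WT replicate 1.

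**Figure D1:**
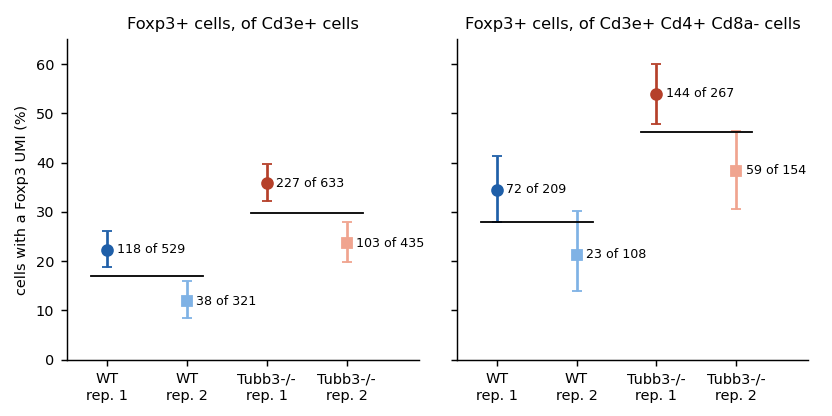
Share of Cd3e+ cells (left) and of Cd3e+ Cd4+ cells (right) with a Foxp3 UMI, in percent, with 1 point per mouse, its exact 95% binomial interval and the number of cells beside it. Both Tubb3-/- mice lie above both WT mice in each panel, and replicate 1 lies above replicate 2 within each genotype.

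Among Cd4+ T cells, the WT shares were 34.5% and 21.3% and the Tubb3-/- shares 53.9% and 38.3%, means of 27.9% ± 9.30 and 46.1% ± 11.1 (SD, n = 2; exact permutation p = 0.333). The order was the same with cells thinned to 2000 UMIs before gating, where 12.9% and 21.9% of Cd3e+ cells were Foxp3+ on average. It was not kept when a T cell needed 2 or more Cd3e UMIs, as Tubb3-/- replicate 2 (25.0%) then fell below WT replicate 1 (25.6%). Of all whole lung cells, Foxp3+ T cells made up 3.40% and 1.20% in WT and 5.41% and 2.98% in Tubb3-/- mice, so WT replicate 1 was above Tubb3-/- replicate 2 on that scale. Each of these is a share, which more Foxp3+ cells and fewer other cells would raise alike.

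Foxp3+ and Foxp3- Cd4+ cells of the same 4 mice were compared next, beginning with the transcription factors. Ikzf2, which encodes Helios, a factor typical of Tregs formed in the thymus, was at 2917 and 2266 CPM in Foxp3+ Cd4+ cells of WT mice and at 2676 and 2221 CPM in those of Tubb3-/- mice. In Foxp3- Cd4+ cells of the same mice it was at 379.7, 173, 295 and 126 CPM, so the groups did not overlap. The log2 fold change was 3.46 (SE 0.20, adjusted p = 1.06e-04, edgeR with the mouse as a block). Ikzf2 was found in 93.3% of Foxp3+ and 18.9% of Foxp3- Cd4+ cells at 2000 UMIs per cell, against 0.943% of B-like and 5.56% of fibroblast-like cells. Foxp3 itself, the gate, had a mean of 349 CPM ± 35.4 (SD, n = 4) in Foxp3+ Cd4+ cells.

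Across 8595 genes, 13% were called between Foxp3+ and Foxp3- Cd4+ cells, 6.86% higher and 6.12% lower. Of the 8 other members, 7 were called higher and 0 lower, with a median log2 fold change of 2.34 against -0.01 over all genes. The list is one of known Treg genes, so its direction here is a description of the gate.

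Il2ra was at 503.9, 306, 565 and 433 CPM in Foxp3+ Cd4+ cells (WT replicates 1 and 2, then Tubb3-/- replicates 1 and 2) and at 72.1, 34.1, 69.5 and 32.6 CPM in Foxp3- ones. The lowest Foxp3+ value was thus above every Foxp3- value, and the log2 fold change was 3.13 (SE 0.17, adjusted p = 8.65e-05). Of 8 tested genes of IL-2 receptor signalling, 4 rose and 0 fell, with a median log2 change of 0.64. They were the receptor chains Il2rb (1.56) and Il2rg (0.76), the signal transducer Stat5a (1.05) and the STAT5 target and feedback inhibitor Cish (1.36, SE 0.18, adjusted p = 0.00235). Stat5b (log2 0.00) and Socs2 (0.09) did not pass the test.

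Both co-inhibitory receptors were called higher. Ctla4, which binds CD80 and CD86 on antigen-presenting cells and keeps them from CD28, was at 1775, 1199, 1954 and 1389 CPM in Foxp3+ and 359, 174, 437 and 193 CPM in Foxp3- Cd4+ cells. It was the member found most widely in Foxp3- cells after Icos, in 28.7% of them at 2000 UMIs against 87.6% of Foxp3+ cells, and its log2 fold change was 2.50 (SE 0.15, adjusted p = 1.06e-04). Tigit, a receptor for PVR and Nectin-2, was at 84.2, 72.3, 78.4 and 42.0 CPM in Foxp3+ and 27.0, 15.4, 28.0 and 22.4 CPM in Foxp3- cells. Its change of 1.52 (SE 0.24, adjusted p = 0.00507) passed the test, although only 14.4% of Foxp3+ Cd4+ cells had a UMI at 2000 UMIs per cell.

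Of the 3 costimulatory receptors, 2 were called. Tnfrsf4 (OX40) was at 1268, 884, 1366 and 1279 CPM in Foxp3+ and 243, 139.7, 170.4 and 139.6 CPM in Foxp3- Cd4+ cells, a log2 fold change of 2.80 (SE 0.15, adjusted p = 8.65e-05). Its neighbour Tnfrsf18 (GITR) rose from a mean of 118 CPM ± 33.9 to 529 CPM ± 68.2 (SD, n = 4; log2 2.18, SE 0.17, adjusted p = 2.21e-04). Icos was the exception, at 665, 387, 666 and 478 CPM against 525, 385, 473 and 309 CPM. It was higher in Foxp3+ cells of all 4 mice, yet the change of 0.36 (SE 0.12, adjusted p = 0.0933) did not pass the threshold, and the ranges of the groups overlapped. Icos was found in 60.7% of Foxp3+ and 43.5% of Foxp3- Cd4+ cells at 2000 UMIs.

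Il10, an anti-inflammatory cytokine, was at 103, 34.0, 67.0 and 56.0 CPM in Foxp3+ and 23.8, 7.70, 17.0 and 13.2 CPM in Foxp3- Cd4+ cells (log2 2.04, SE 0.20, adjusted p = 6.19e-04). It was the least widely found member, in 10.4% of Foxp3+ and 2.73% of Foxp3- Cd4+ cells at 2000 UMIs, and in 0.943% of B-like cells. In CPM, B-like (mean 12.3 ± 3.61) and macrophage-like cells (11.6 ± 3.27) overlapped Foxp3- Cd4+ cells (15.4 ± 6.75, SD, n = 4).

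**Figure D2:**
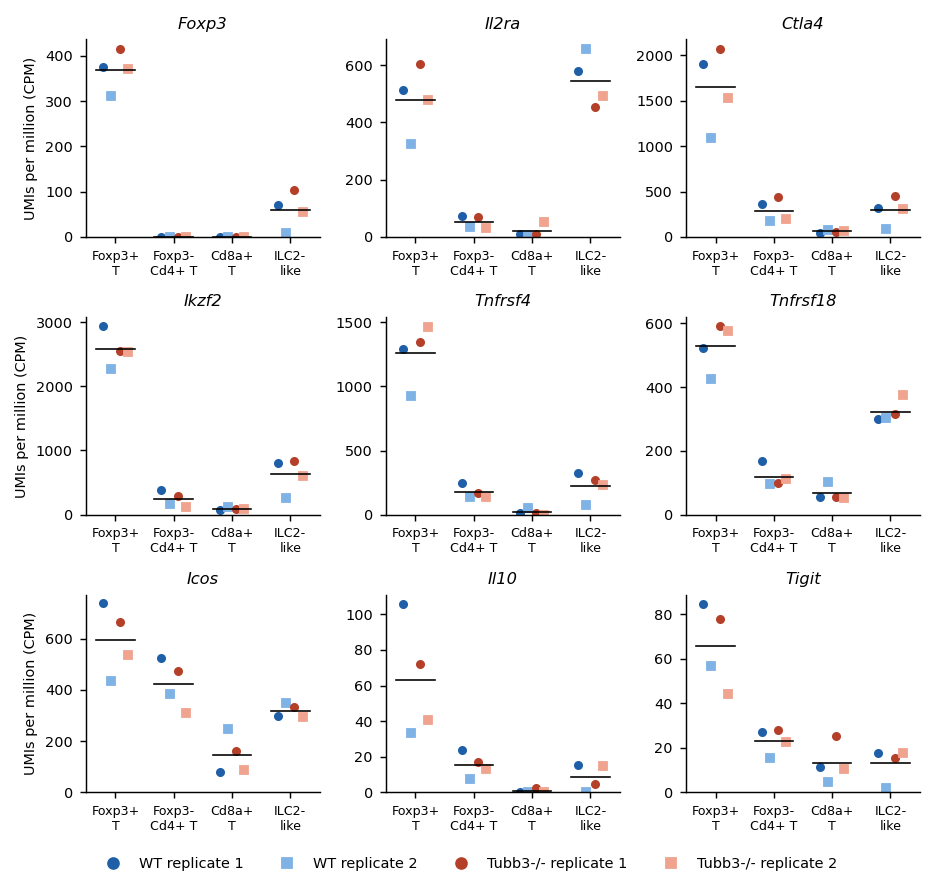
Level of each of the 9 genes in CPM (linear axes from 0) in Foxp3+ T cells, Foxp3- Cd4+ T cells, Cd8a+ T cells and ILC2-like cells, with 1 point per mouse and a line at the mean of 4 mice. Foxp3 is 0 in Foxp3- Cd4+ and Cd8a+ cells by the gate. Of the other genes, all but Icos have every Foxp3+ point above every Foxp3- Cd4+ point. Il2ra in ILC2-like cells (453 to 658 CPM) overlaps Foxp3+ T cells (325 to 603 CPM).

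Members were also counted in individual cells. Of the 8 members other than Foxp3, a Foxp3+ Cd4+ cell thinned to 2000 UMIs had 4.26 to 4.81 on average in the 4 mice, a Foxp3- Cd4+ cell 1.14 to 1.86 and a B-like cell 0.0727 to 0.123. At least 4 were found in 76.3% to 85.4% of Foxp3+ and in 9.41% to 20.6% of Foxp3- Cd4+ cells. Such counts follow from the share of each gene in its group. Whether members occurred together more often than these shares give was not tested. Foxp3 itself was kept in 55.0% of the gated Foxp3+ Cd4+ cells after thinning, so a cell without a Foxp3 UMI is not shown to lack Foxp3.

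Most of the difference lay between cells with 0 and with 1 Foxp3 UMI. From 0 to 1 Foxp3 UMI (440 and 70 Cd4+ cells), mean Ikzf2 went from 243.5 to 2498 CPM, Ctla4 from 291 to 1576 CPM and Tnfrsf4 from 173 to 1125 CPM. From 1 UMI to 3 or more (175 cells), Ikzf2 was at 2680 CPM ± 234 against 2498 CPM ± 540 (SD, n = 4 mice), within the spread of the mice. Il2ra had means of 325 CPM ± 148 at 1 UMI, 419 CPM ± 244 at 2 and 511 CPM ± 116 at 3 or more, and Tnfrsf18 of 417 CPM ± 185, 434 CPM ± 167 and 609 CPM ± 43.9. Icos had its highest mean at 1 UMI, 736 CPM ± 246 (SD). WT replicate 2 gave only 6 and 4 cells with 1 and 2 Foxp3 UMIs. Cells with 3 or more Foxp3 UMIs were deeper than those with 1 (median 7569 UMIs against 6126). Cells with 0 Foxp3 UMIs lay between them, at a median of 6874.5 UMIs. The levels by Foxp3 UMIs were not tested.

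**Figure D3:**
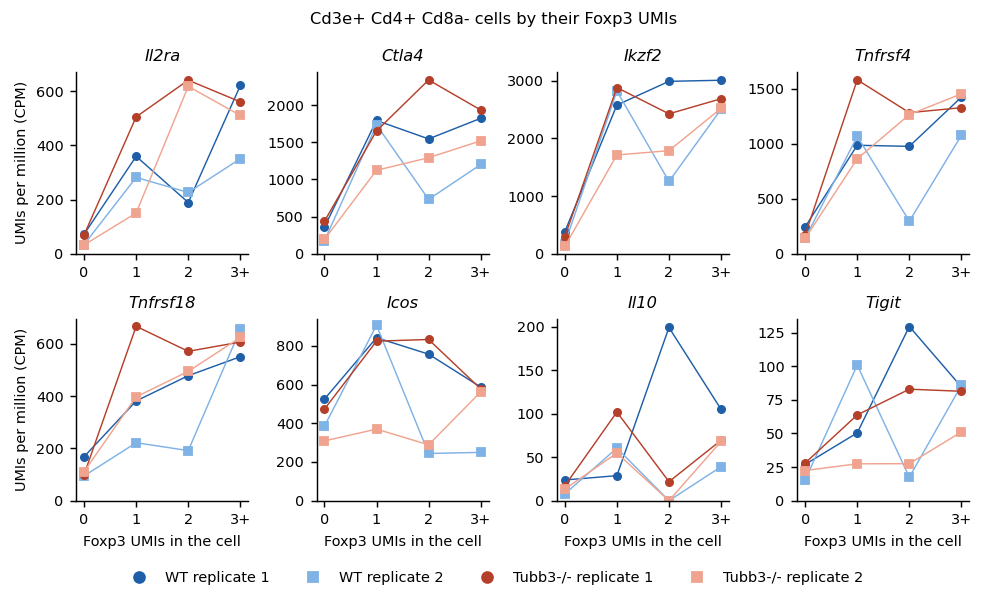
Level of 8 genes in CPM in Cd3e+ Cd4+ Cd8a- cells grouped by their Foxp3 UMIs (0, 1, 2, 3 or more), with 1 line per mouse. Most of the difference in Ikzf2, Ctla4 and Tnfrsf4 lies between 0 and 1 UMI, and points at 2 UMIs rest on 4 to 29 cells per mouse.

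Of 16 genes of tissue Tregs, 14 rose between Foxp3- and Foxp3+ Cd4+ cells (median log2 1.46 against -0.01 over all genes), among them the IL-33 receptor Il1rl1 (log2 3.44), the repair factor Areg (3.10), Klrg1 (3.60), the costimulatory receptor Tnfrsf9 (3.27) and the chemokine receptor Ccr8 (1.99). Ccr4 (0.38) and Prdm1 (0.91) did not pass. Of 11 tested suppressive and checkpoint genes 7 rose (median 1.86), including the TGF-β activating integrin Itgb8 (3.53), Pdcd1 (2.51), Ebi3 (2.47) and the ectoenzyme Nt5e (1.86), while Gzmb (1.53) and Entpd1 (-0.15) did not pass. Of 10 naive T cell genes, 9 fell (median -2.06), among them the transcription factors Tcf7 (-2.85), Satb1 (-2.75), Lef1 (-2.60) and Bach2 (-2.24) and the egress receptor S1pr1 (-1.88). Il7r (0.10), the receptor for the survival factor IL-7, did not pass.

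Among genes outside these lists, those with the largest called rises were Cxcl3 (3.78), Frmd5 (3.50), Gm28112 (3.43), Hopx (3.31) and Gm13684 (3.29), of which Gm28112 lies inside Ikzf2 on the same strand. The largest called falls were of Fasl (-4.30), a death ligand of effector T cells, and of Pdlim4, C7, Scgb3a2, Mmp3, Il12rb2 and Rflnb (-3.58 to -3.09). C7, Mmp3 and Scgb3a2 are genes of stromal and airway cells, and Scgb3a2 was at 338 CPM in Foxp3- Cd4+ cells of Tubb3-/- replicate 1 and at up to 20.4 CPM in the other mice. Of the 3 epithelial markers, the summed level was 29600 CPM in Foxp3+ Cd4+ cells of WT replicate 2 and 309 to 354 CPM in the other 3 mice, and Epcam was found in 24.2% of Foxp3+ and 5.91% of Foxp3- Cd4+ cells; the part of such transcripts in these results was not tested. Without WT replicate 2 the member changes stayed past the threshold, and over the omission of any mouse the 7 called members had log2 changes from 1.37 (Tigit) to 3.63 (Ikzf2).

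In Cd8a+ T cells, Tnfrsf4, Ctla4 and Icos were lower than in Foxp3- Cd4+ cells. Of 8697 genes 2.7% were called, 1.69% higher and 1.01% lower, and of the 7 members tested 3 were lower and 0 higher (median log2 -1.51 against 0.00 over all genes). Tnfrsf4 was at 9.63, 53.1, 13.2 and 0 CPM in Cd8a+ cells, below every Foxp3- Cd4+ value (log2 -3.49, SE 0.63, adjusted p = 0.0340). Ctla4 was at 41.4, 82.1, 52.7 and 64.6 CPM (log2 -2.16, SE 0.38, adjusted p = 0.0298), also below every Foxp3- Cd4+ value. Icos, at 80.9, 246, 161 and 88.1 CPM, fell by 1.58 on the log2 scale (SE 0.29, adjusted p = 0.0369). These 3 calls held without WT replicate 2 and were lost without any of the other 3 mice (adjusted p = 0.0561 to 0.185), while the log2 changes stayed between -4.49 and -1.25. From the whole lung libraries alone, the calls of Ctla4 (adjusted p = 0.0591) and Tnfrsf4 (adjusted p = 0.0623) were lost too. Il2ra (-1.51), Ikzf2 (-1.26), Tnfrsf18 (-0.79) and Tigit (-0.79) did not pass. With no filter on low counts, Il2ra (adjusted p = 0.0212), Ikzf2 (adjusted p = 2.05e-04) and Tnfrsf18 (adjusted p = 0.0226) were called lower. Ikzf2 was also called by DESeq2 (adjusted p = 0.0241) and with at most 1 UMI each of 4 markers of other cell types (adjusted p = 0.0286), and Il2ra without Tubb3-/- replicate 2 (adjusted p = 0.0286). Of 15 tissue Treg genes, 9 were lower in Cd8a+ cells (median -1.85).

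In ILC2-like cells, Il2ra, Tnfrsf18 and Ikzf2 were higher than in Foxp3- Cd4+ cells. Of 8334 genes 9.94% were called against Foxp3- Cd4+ cells, 5.94% higher and 4% lower, and 3 of 8 members were higher (median log2 0.11 against -0.02 over all genes). Il2ra was at 581, 658, 453 and 494 CPM in ILC2-like cells, above every Foxp3- Cd4+ value and within or above the range of Foxp3+ Cd4+ cells (log2 3.43, SE 0.28, adjusted p = 4.49e-04). Tnfrsf18 was at 300, 303, 314 and 376 CPM (log2 1.49, SE 0.18, adjusted p = 0.00183), between the other groups and overlapping neither. Ikzf2, at 808, 265, 831 and 604 CPM, was also called (1.38, SE 0.23, adjusted p = 0.00870). Ctla4 (-0.07), Tnfrsf4 (0.29), Icos (-0.37), Il10 (-0.87) and Tigit (-0.82) did not pass.

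**Figure D4:**
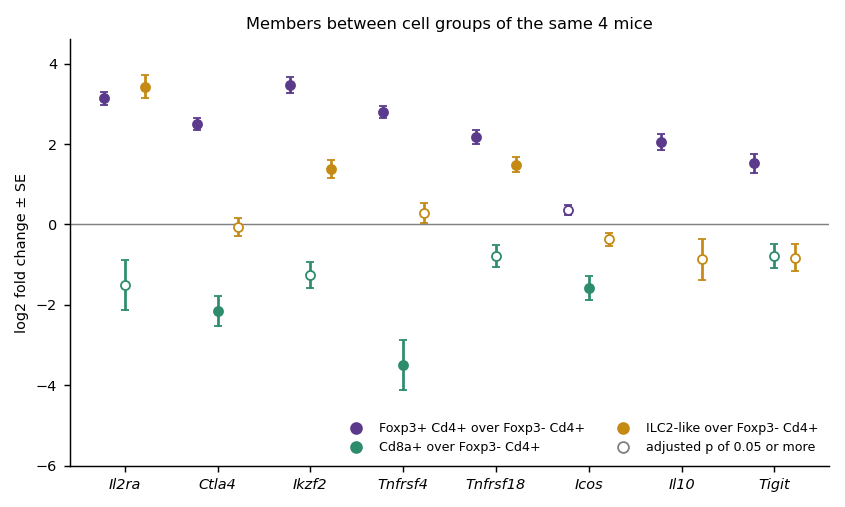
Log2 fold change with its standard error of 8 genes, in Foxp3+ Cd4+, Cd8a+ and ILC2-like cells over Foxp3- Cd4+ cells of the same 4 mice, with filled points for adjusted p under 0.05. All 3 comparisons share the Foxp3- Cd4+ cells, and Il2ra is called in both Foxp3+ Cd4+ and ILC2-like cells.

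Part of the ILC2-like gate held cells with T cell transcripts. Of the 296 cells, 139 (47.0%) had a UMI of Foxp3, Cd3d, Cd3g, Trac, Cd4 or Cd8a, and the 49 with a Foxp3 UMI had Cd3g in 69.4%, Trac in 63.3%, Ctla4 in 98.0% and Ikzf2 in 95.9%. None of these 49 had a UMI of the ILC2 cytokines Il5 or Il13, against 28.7% and 10.2% of the 157 cells without any of the 6 T cell transcripts. The 49 came as 13 and 3 cells from the WT and as 20 and 13 cells from the Tubb3-/- mice. Of all 139 cells, 17.3% had an Il5, 6.5% an Il13 and 28.8% an Il2 UMI. None of those UMIs lay in the 49 with Foxp3, so all lay in the rest of the 139. What the 139 cells are was not tested.

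In the 157 cells without T cell transcripts (a split added after seeing the data), Il2ra was at 459, 678, 420 and 376 CPM and stayed above Foxp3- Cd4+ cells (log2 3.26, adjusted p = 0.00128), as did Tnfrsf18 at 226 to 313 CPM (1.20, adjusted p = 0.0139). Ikzf2, at 179 to 289 CPM, was no longer called (0.09, adjusted p = 0.900). Tnfrsf4 turned from 0.29 to -3.67 (adjusted p = 0.00105), with 3.26 to 20.7 CPM, and Ctla4 (-2.53, adjusted p = 0.0227) and Tigit (-3.18, adjusted p = 0.0206) were then lower than in Foxp3- Cd4+ cells. Icos remained without a call (-0.57, adjusted p = 0.214). Of the 8 members, Il2ra and Tnfrsf18 were higher with either gate.

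**Figure D5:**
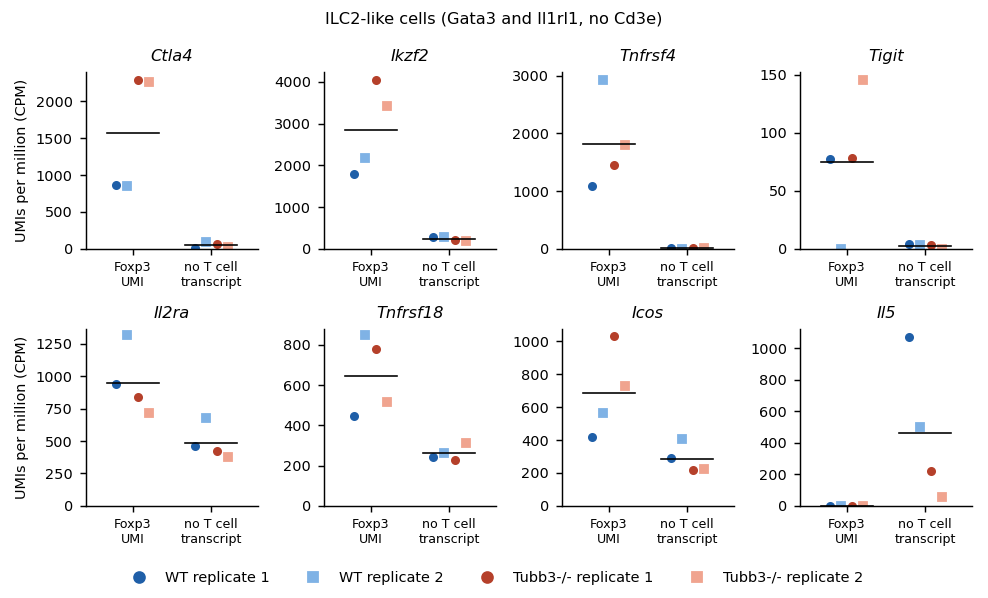
Level in CPM (linear axes from 0) of 7 members and of the ILC2 cytokine Il5 in ILC2-like cells with a Foxp3 UMI (49 cells) and in those with none of 6 T cell transcripts (157 cells), with 1 point per mouse and a line at the mean. The first set has 3 cells in WT replicate 2, and Ctla4, Tnfrsf4 and Tigit lie near 0 in the second set while Il2ra lies at 376 to 678 CPM.

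Of the gated groups, ILC2-like cells had the highest mean level of Il2. Il2, the cytokine that CD25 binds, was at 87.2, 228.5, 112.5 and 251 CPM in ILC2-like cells, in 30.4% of them, and at 20.6, 8.80, 12.3 and 13.2 CPM in Foxp3- Cd4+ cells (log2 3.48, SE 0.40, adjusted p = 0.00163). In Foxp3+ Cd4+ cells it was at 0 to 3.50 CPM and was not tested. The 157 cells without T cell transcripts had a mean of 169 CPM ± 45.0 (SD, n = 4), and 0 of the 49 with a Foxp3 UMI had an Il2 UMI, which allows a share of cells with a UMI of up to 6.12% (3 cells of 49, counting error only) and sets no limit on expression in cells of this depth.

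The level of the members within a group did not pass a test of genotype. In the 486 Foxp3+ T cells, 0 of 8584 genes (0%) were called between Tubb3-/- and WT mice, 314 had an unadjusted p under 0.05 and DESeq2 called 4, and 0 of the 9 members were called. Il2ra was at 514 and 325 CPM in WT and 603 and 477.5 CPM in Tubb3-/- mice (log2 0.35, SE 0.26, adjusted p = 1.00). Tnfrsf4 (1294 and 927 against 1345 and 1467 CPM) and Tnfrsf18 (524 and 425 against 593 and 577 CPM) were the members for which neither WT mouse reached the lower Tubb3-/- mouse, with log2 changes of 0.33 (SE 0.21) and 0.29 (SE 0.18). The members ranged from -0.38 (Il10) to 0.35 (Il2ra). Their median, 0.19, was the value of Foxp3, whose level in these cells is partly set by the gate. With 2 mice per genotype these values do not show that the levels were alike.

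Foxp3- Cd4+ cells (0 of 9398 genes called, 0%, 451 at an unadjusted p under 0.05, DESeq2 2) and ILC2-like cells (0 of 7457, 0%, 369 unadjusted, DESeq2 10) gave no called member either. With no filter on low counts Ctla4 was called in ILC2-like cells (log2 0.93, adjusted p = 0.0274), and over all alternatives its change there ranged from -0.40, without the cells holding T cell transcripts, to 2.12, without WT replicate 1. In Foxp3- Cd4+ cells Ctla4, Ikzf2 and Il2ra followed the replicate number, with Ctla4 at 359 and 174 CPM in WT and 437 and 193 CPM in Tubb3-/- mice. In ILC2-like cells Il2ra was lower in both Tubb3-/- mice (453 and 494 against 581 and 658 CPM, log2 -0.42, SE 0.16, adjusted p = 0.984). Of 8144 genes in Cd8a+ cells 0.0246% were called, the club cell genes Scgb3a2 and Cyp2f2, and 0 of the 4 members tested. Scgb3a2 was at 7.70 and 14.5 CPM in WT and 1199 and 1367 CPM in Tubb3-/- Cd8a+ cells. With at most 1 UMI each of Col1a1, Cdh5, Epcam and Cd79a per cell, 0 genes were called in that comparison.

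Whether the genotype change differed between Foxp3+ and Foxp3- Cd4+ cells was tested as an interaction, which called 0 of 9670 genes (0%, 278 unadjusted, DESeq2 1). The members' interaction terms ranged from -0.65 (Tigit) to 0.56 (Tnfrsf4, SE 0.26), and the absence of calls does not show that the changes were alike. Summed over all whole lung cells, where more cells of a type and more RNA per cell cannot be told apart, Foxp3 was at 10.5 and 3.82 CPM in WT and 14.3 and 7.67 CPM in Tubb3-/- mice (log2 0.63, SE 0.57, adjusted p = 0.635). There, 0 of 18402 genes (0%) were called by edgeR, with 2947 at an unadjusted p under 0.05 and 664 called by DESeq2, and 0 of the 9 members by edgeR.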

How the data were processed

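Single-cell RNA-seq was performed by the authors, who aligned reads to mm10 and demultiplexed tags with Cell Ranger 7.1.0. The values are raw UMI counts per gene and cell as deposited, with no normalization. Each matrix was assigned to its mouse by its leading tag and the labels. Cells with 200 to 7500 genes and at most 15% mitochondrial UMIs were kept (30860), and 842 doublets were removed with Scrublet in scanpy 1.11.5 (Python 3.11.15), at an expected rate of 8%, set after the default rate had marked under 0.5% of whole lung cells. The cells kept per group had a median of 7107.5 (Foxp3+ Cd4+), 6874.5 (Foxp3- Cd4+), 10035 (Cd8a+) and 5842 (ILC2-like) UMIs.

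UMIs were summed per mouse and group over both libraries and tested in R 4.3.3 by the quasi-likelihood F test of edgeR 4.0.16, after filterByExpr and TMM, with Benjamini-Hochberg adjustment over all genes and a threshold of 0.05. Comparisons between groups had the mouse as a block, and gate genes were left out of the counts and shares of the main fits. Counts of genes called under the alternatives include gate genes where these were fitted. CPM are raw sums scaled to 1000000. Cell numbers were tested with edgeR too, as scCODA was not used here. Exact permutation and binomial methods came from scipy 1.17.1. Shares at 2000 UMIs leave out shallower cells (15 of the ILC2-like), and intervals cover counting error only. Tests were tried on simulated counts. DESeq2 1.42.0, RLE factors, no filter, stricter gates and omission of each mouse were alternatives.

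The members and lists were chosen with earlier results of these data known. Looked up were all members and list genes, and the 8 largest called rises and falls between Foxp3+ and Foxp3- Cd4+ cells. These rises and falls had a mean level of 10 CPM or more and 1 direction in 4 of 4 mice. Of the list genes, only a part is named in the text. For the members other than Foxp3 and Il10, 2 genes of most similar pattern were also found. Whether counting used strand is not given in the sources used here.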

Additional observations from a re-analysis of the deposited data

Results flagged for a closer look

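Samples far from the other 3 mice of a group, by the gap to the nearest value against the range, were found for 4 member levels. Il2ra in Cd8a+ T cells was at 51.4 CPM in Tubb3-/- replicate 2, Tnfrsf18 in Cd8a+ T cells at 104 CPM in WT replicate 2, Il10 in Cd8a+ T cells at 2.40 CPM in Tubb3-/- replicate 1, and Tigit in ILC2-like cells at 2.14 CPM in WT replicate 2. Chance marks about 1 in 20 groups of distinct values in this way. The Il10 value rests on 2 UMIs against 0 in the other 3 mice, and this rate does not cover such ties.

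Il2ra was also marked because the genotypes lay apart in opposite directions in 2 groups. The Tubb3-/- mean minus the WT mean was 23.7 CPM in Cd8a+ T cells and -146 CPM in ILC2-like cells, with no overlap between genotypes in either. The difference between the groups was not tested, and the Cd8a+ value rests mainly on Tubb3-/- replicate 2.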

How the results depend on the processing

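The 7 member calls between Foxp3+ and Foxp3- Cd4+ cells kept their direction and call in all 14 alternatives, and Icos stayed without a call. Replicate numbers marked no shared litter or day in the labels, but went with sex as read from Xist and Y-linked UMIs, so the block is also one of sex. With the replicate block the Foxp3+ share of Cd3e+ cells had a log2 ratio of 0.77 (adjusted p = 0.00744), past the threshold, with 11 genes called by genotype in Cd8a+ cells and 38 in whole lung cells. Without the block in ILC2-like against Foxp3- Cd4+ cells, Ikzf2 lost its call (adjusted p = 0.0559). Ctla4 there had a log2 change of 0.0018 and was not called.

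Counts of called genes moved most. By genotype, DESeq2 called 4 genes in Foxp3+ T, 2 in Foxp3- Cd4+, 41 in Cd8a+, 10 in ILC2-like and 664 in whole lung cells, and 1 for the interaction. With no filter on low counts, 159, 241, 598 and 173 genes were called in the first 4 of these and 79 for the interaction, and between groups 1827 (Foxp3+), 607 (Cd8a+) and 1520 (ILC2-like). The genotype count in Cd8a+ cells was 80 from the whole lung library alone, 7 with 2 or more Cd3e UMIs and 0 with at most 1 UMI of each stray marker, where 424 genes were called for Cd8a+ against Foxp3- Cd4+ cells. Without cells holding T cell transcripts 501 genes were called for ILC2-like cells. The cause was not tested.

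Leaving out a mouse leaves 1 in an arm, whose spread is taken from the others. The genotype counts ranged from 0 to 151 (Foxp3+ T), 0 to 38 (Foxp3- Cd4+), 8 to 618 (Cd8a+), 0 to 1 (ILC2-like), 0 to 44 (whole lung) and 0 to 130 (interaction), with the highest Foxp3+ T count without Tubb3-/- replicate 1 and the highest Cd8a+ count without WT replicate 2. Between groups they were 698 to 875, 29 to 148 and 429 to 922 for Foxp3+, Cd8a+ and ILC2-like cells. The Foxp3+ share gave a log2 ratio of 0.43 to 1.34, and of Cd4+ cells a difference of 10.4 to 26.1 points. Genotype changes that turned were those in Foxp3+ T cells of Ctla4 (-0.093 to 0.76), Ikzf2 (-0.22 to 0.20), Icos (-0.31 to 0.50), Il10 (-0.87 to 0.83) and Tigit (-0.72 to 0.19), and in ILC2-like cells of Ikzf2 (-0.20 to 1.40) and Icos (-0.20 to 0.059). Ctla4 in ILC2-like against Foxp3- Cd4+ cells ranged from -0.31 to 0.20.

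Other turns were small or followed the gate. In Foxp3+ T cells the genotype change of Ikzf2 was 0.0056 with no filter, 0.047 with 2 or more Cd3e UMIs and 0.037 with 2 or more Foxp3 UMIs, that of Icos -0.028 with doublets kept and -0.080 with at most 1 stray UMI, that of Foxp3 -0.055 with the latter, and that of Il10 0.066 with 2 or more Cd3e UMIs. In ILC2-like cells it was -0.40 (Ctla4) and -0.62 (Ikzf2) without T cell transcripts, and 0.011 and 0.42 for Icos in the whole lung library and the stricter gate. Against Foxp3- Cd4+ cells, Ctla4 was at 0.13 and 0.23 in these, Icos at 0.15 in the stricter gate and Tnfrsf4 at -3.67 without T cell transcripts. The planned gate with no UMI of Col1a1, Cdh5, Epcam, Cd79a or Lyz2 left 7 Foxp3+ cells, 0 of 10 and 0 of 5 Cd3e+ cells in WT and 4 of 10 and 3 of 8 in Tubb3-/- mice (means 0% and 38.8%, exact permutation p = 0.333). There the log2 ratio was 4.74 (adjusted p = 0.0452), past the threshold but fitted against 0 WT cells and so dependent on the prior count, the difference among Cd4+ cells was 45.8 points, and no genes were fitted.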

Other observations

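Ligands of the members were spread over other cell groups. Cd80 had its highest mean in neutrophil-like (277.5 CPM ± 92.8) and dendritic-like cells (199.7 CPM ± 42.4), and Cd86 in dendritic-like (605 CPM ± 83.4) and B-like cells (405 CPM ± 82.1) (SD, n = 4). Nectin2 was highest in epithelial-like cells (148 CPM ± 9.95). Tnfsf4, the OX40 ligand, was at 10.8 CPM ± 2.79 in dendritic-like cells. In whole lung cells, 0 of the 10 ligand and IL-10 receptor genes were called between genotypes, with log2 changes from -0.59 (Cd80, adjusted p = 0.194) to 1.31.

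Genes with the pattern most like a member's were named over 68 points, 17 groups in each of 4 mice, by Pearson's r of log2 levels over 12883 genes. For Il2ra these were Pdcd1 (r = 0.960) and Il1rl1 (0.935), for Ctla4 Slamf1 (0.963) and for Ikzf2 and Tnfrsf4 Izumo1r (0.949 and 0.950). Il1rl1 is a gate gene of the ILC2-like cells, so its high level there follows from the gate and its likeness to Il2ra is partly built in. Tnfrsf18 was most like Kdm2b (0.956), Icos like the T cell receptor gene Cd3g (0.978) and Tigit like Klrg1 (0.945). The points share mice, libraries and overlapping gates, so these values are descriptions.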
